A study of Mus musculus with 4 samples.

Results

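The receptors and exporters of sphingosine 1-phosphate (S1P) were examined by ATAC-seq, an assay in which the Tn5 transposase cuts accessible DNA. The set was chosen by gene name and held 8 of 21887 protein-coding genes. It comprised the 5 receptor genes S1pr1 to S1pr5 and the 3 exporter genes Spns2, Mfsd2b and Abcc1. All called peaks that overlapped a gene body extended by 10 kb on each side were taken, and peaks of different libraries were merged where they overlapped by 1 bp or more. This gave 30 of the 45299 merged regions of the series.

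The libraries came from myeloid-derived suppressor cells (MDSCs), immature myeloid cells that dampen T cell responses in tumour-bearing hosts. Cells positive for Gr1 and CD11b were sorted from ascites at day 14 after the host received EL4 lymphoma cells, a mouse line of T cell origin. Hosts were wild type (WT, 2 libraries) or Sphk2 KO (2 libraries), and every host carried the EL4 tumour. Each library was made from 20000 cells with 40% of the recommended Tn5. The titles call the libraries of a genotype biological replicates. Strain, age, sex, the extent of the deletion and the link between libraries and animals are not given in the sources used here.

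S1P is a lipid signal made inside cells by the sphingosine kinases Sphk1 and Sphk2. It leaves the cell through exporters and then acts on G protein-coupled receptors at the surface of the same or other cells. In blood and lymphoid tissue this axis is best known for guiding leukocytes out of tissues along S1P gradients. The comparison of WT with Sphk2 KO asks whether chromatin at the genes that export and sense S1P differed when one of its 2 kinases was missing.

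Promoter windows of the 6 members with an entry in the RefSeq promoter table (GRCm38.p6, the assembly of mm10) were compared. Each spans 250 bases before to 50 bases after the annotated start. S1pr5 is shown because its window carried a peak in the WT libraries alone, and S1pr2 because its window carried one in all 4 libraries. S1pr4 and Mfsd2b are shown because theirs carried none. Sequences run 5′ to 3′ on the minus strand, to which all 4 genes belong. Capitals mark bases inside the peaks of every library that called the window, and the start lies 50 bases from the right end. The windows are chr9:21248394-21248693 for S1pr5, chr9:20976744-20977043 for S1pr2, chr10:81500088-81500387 for S1pr4 and chr12:4874310-4874609 for Mfsd2b.
S1pr5: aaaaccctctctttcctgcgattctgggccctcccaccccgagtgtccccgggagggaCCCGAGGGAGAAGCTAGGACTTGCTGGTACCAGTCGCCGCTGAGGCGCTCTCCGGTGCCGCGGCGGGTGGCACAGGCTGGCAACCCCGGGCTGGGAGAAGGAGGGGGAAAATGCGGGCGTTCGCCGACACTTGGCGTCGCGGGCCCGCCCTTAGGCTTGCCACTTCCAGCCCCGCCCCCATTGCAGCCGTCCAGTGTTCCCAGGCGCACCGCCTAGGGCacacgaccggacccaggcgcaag
S1pr2: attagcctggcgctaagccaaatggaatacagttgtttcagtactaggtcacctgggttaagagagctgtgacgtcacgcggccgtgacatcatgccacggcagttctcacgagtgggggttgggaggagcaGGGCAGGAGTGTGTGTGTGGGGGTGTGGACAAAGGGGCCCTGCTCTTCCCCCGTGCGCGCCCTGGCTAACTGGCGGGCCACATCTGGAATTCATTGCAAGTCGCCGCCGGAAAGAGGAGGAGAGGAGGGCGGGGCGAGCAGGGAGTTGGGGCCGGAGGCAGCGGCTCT
S1pr4: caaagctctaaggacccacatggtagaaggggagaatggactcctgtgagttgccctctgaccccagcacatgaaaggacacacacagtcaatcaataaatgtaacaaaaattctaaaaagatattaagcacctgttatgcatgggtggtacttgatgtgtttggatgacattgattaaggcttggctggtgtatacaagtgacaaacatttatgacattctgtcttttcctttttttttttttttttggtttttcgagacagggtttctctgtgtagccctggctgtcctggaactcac
Mfsd2b: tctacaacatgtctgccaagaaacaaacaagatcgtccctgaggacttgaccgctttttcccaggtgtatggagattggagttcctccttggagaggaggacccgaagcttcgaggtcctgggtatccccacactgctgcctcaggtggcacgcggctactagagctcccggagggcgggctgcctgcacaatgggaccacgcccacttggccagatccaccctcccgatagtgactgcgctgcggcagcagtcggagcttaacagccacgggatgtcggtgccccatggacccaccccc

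The 4 windows differed in base composition. The CpG observed/expected ratio, which compares the number of CpG dinucleotides with that expected from the C and G content, was 0.750 in S1pr5 and 0.669 in S1pr2. It was 0.546 in Mfsd2b and 0.0797 in S1pr4, a window with a single CpG. The remaining windows had ratios of 0.573 (S1pr3) and 0.105 (Spns2, at the internal start listed for that gene). Over all 21263 windows of protein-coding genes the median was 0.567, and 39.5% carried a peak in all 4 libraries. Windows with a ratio from 0.6 to 0.8, the class of S1pr5 and S1pr2, carried a peak in all 4 libraries in 59.4% of cases and in both WT and neither Sphk2 KO library in 1.71%. Over the 4 classes, under 0.4, 0.4 to 0.6, 0.6 to 0.8 and from 0.8, the share with a peak in all 4 libraries was 6.34%, 30.7%, 59.4% and 76.3%. Windows under 0.4, the class of S1pr4 and Spns2, carried none in 88.1% of cases. In the class from 0.4 to 0.6, which holds Mfsd2b and S1pr3, 56.1% carried none. Peak presence was thus ordered by CpG content over all promoters. The windows without a peak at S1pr4, Mfsd2b and the internal start of Spns2 were each in classes where that was the more frequent state. The upper-coordinate end of Spns2, which is the 5′ end of this minus-strand gene, was not in a window. A region there was called in WT replicate 2 and Sphk2 KO replicate 2, and its CpG content was not measured.

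**Figure D1:**
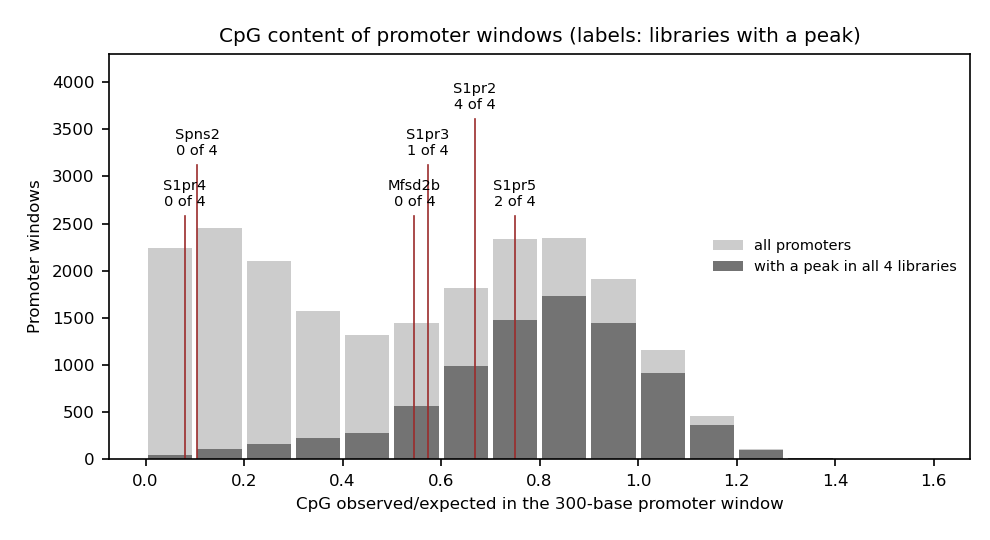
CpG observed/expected ratio of the 300-base promoter windows (x axis) against their number (y axis), for all protein-coding genes (light bars) and for windows with a peak in all 4 libraries (dark bars). Vertical lines mark the 6 member windows, labelled with the number of libraries that called a peak there. The S1pr2 line at 0.669 is the only one with 4, and the S1pr4 and Spns2 (internal start) lines stand at the low end.

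Short motifs were searched in these windows on both strands. The KLF core CACCC was found in 5 of 6 windows (S1pr2, S1pr3, S1pr4, S1pr5 and Mfsd2b), and 59.5% of all promoter windows hold it. KLF2, a member of this family, is a known activator of S1pr1. Like Abcc1, S1pr1 had no entry in the promoter table and was not searched. The PU.1 core GAGGAA, the site of a myeloid master regulator, was found in 3 of 6 windows (S1pr3, Spns2 and Mfsd2b), compared with 27.4% of all windows. The RUNX core TGTGGT was found at Spns2, compared with 15.0% of all windows. The C/EBP letters TTGCNNAA (10.2% of all windows), the AP-1 letters TGANTCA (6.99%) and the STAT letters TTCNNNGAA (7.69%) were in none of the 6. No matches of different motifs overlapped. In S1pr5 one CACCC match, at position -128 on the reverse strand, lay within both WT peaks, and another at -216 lay outside. These matches describe letters only.

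Calls were made by the authors for each library separately, and a call depends on depth. The lists held 31507 and 31843 peaks in WT against 20759 and 27446 in Sphk2 KO, from 33859480 and 34443062 against 25877428 and 27686223 retained fragments. Sphk2 KO replicate 1 thus had the fewest fragments and the shortest list. The authors' fragment size was 156 and 177 bp in WT against 179 and 193 bp in Sphk2 KO. At the targeted gene Sphk2, a region inside the gene (chromosome 7, 45715043 to 45716683) had a call with a −log10 q of 26.4 and 42.2 in Sphk2 KO but none in WT. The region at its upper-coordinate end was called in all 4 (61.6 and 73.5 against 28.0 and 70.5). No member lies on chromosome 7.

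Gene-end peaks of marker genes were counted as a check of the sort. Itgam, which encodes CD11b, had one in all 4 libraries, while Ly6g and Ly6c1, which encode proteins that Gr1 antibodies bind, had none. Ly6c2, a further Ly6 gene counted below among the monocyte markers, had one in WT replicate 2. Neutrophil markers had a peak at 7 and 7 of 12 genes in the WT libraries and at 6 and 8 in Sphk2 KO. Their summed −log10 q was 117 and 136 in WT against 109 and 197 in Sphk2 KO, and Ngp, Elane and Mpo had none. Monocyte markers stood at 6 and 7 of 10 genes in WT but 3 and 4 in Sphk2 KO (summed 75.8 and 73.6 against 25.6 and 56.8), with none at Ccr2, Ms4a4c and Vcan. Monocyte marker calls were thus more numerous in WT, but so were calls in general. Of all regions near genes, the WT libraries called 74.9% and 78.9%, and the Sphk2 KO libraries 54.4% and 71.5%. The share of all genes with a gene-end peak in each library is not given. Whether the difference is particular to monocyte markers therefore cannot be told, and its part in the results that follow was not tested. T cell markers stood at 2 and 7 of 12 genes in WT and at 2 and 2 in Sphk2 KO, so the higher count belonged to WT replicate 2 alone. Their summed −log10 q was 130 and 196 in WT against 108 and 200 in Sphk2 KO. Cd3e, Cd3g, Lck and Tcf7 had no call in any library. The part of T cell marker calls in the results that follow was not tested either. B cell markers had none in any library (0 of 7 genes). In bulk libraries, fewer cells of a type and less accessible chromatin per cell cannot be told apart.

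Over all members, most calls were weak and few were shared by every library. Of the 30 regions, 7 were called in all 4 libraries (23.3%), compared with 48.9% of the 29351 regions that lie within 10 kb of any protein-coding gene. Called in both WT and neither Sphk2 KO library (WT-only) were 3 regions, one at S1pr5 and the others at Abcc1 (10.0%, compared with 5.45%). No region was called in both Sphk2 KO and neither WT library (0 of 30, compared with 0.620%). Over all 45299 regions the 3 shares were 37.5%, 5.43% and 0.605%. The remaining 20 regions had other combinations. With 30 regions and 2 libraries per genotype, these shares were described without a test. With the 20759 best peaks of every library, no member region was WT-only. With 1 library left out, the WT-only count rose to 9 without WT replicate 1, 7 without Sphk2 KO replicate 2 and 4 without either of the others. The shared count rose to 11 without Sphk2 KO replicate 1. With a library left out, each definition asks less of every region. The matching shares over all regions are not given for these settings, so whether the changes are particular to the members cannot be told.

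WT replicates 1 and 2 called 18 and 24 member regions, and Sphk2 KO replicates 1 and 2 called 9 and 19. The groups overlapped, since Sphk2 KO replicate 2 lay between the WT libraries, and the low value belonged to Sphk2 KO replicate 1 alone. Among all regions near genes the same libraries called 74.9%, 78.9%, 54.4% and 71.5%. At the members these shares were 60.0%, 80.0%, 30% and 63.3%. Sphk2 KO replicate 1 was the only library without a call in 4 regions, at S1pr1, S1pr2, S1pr3 and Abcc1 (13.3%, compared with 8.36% of regions near genes). Sphk2 KO replicate 2 was so in 1 region, inside Abcc1 (3.33%, compared with 0.596%). Of the 9 regions called in exactly 2 libraries, 6 had one library of each genotype (66.7%, compared with 48.1% of such regions near genes). All 6 of these involved Sphk2 KO replicate 2, as did 87.2% of such mixed regions near genes.

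**Figure D2:**
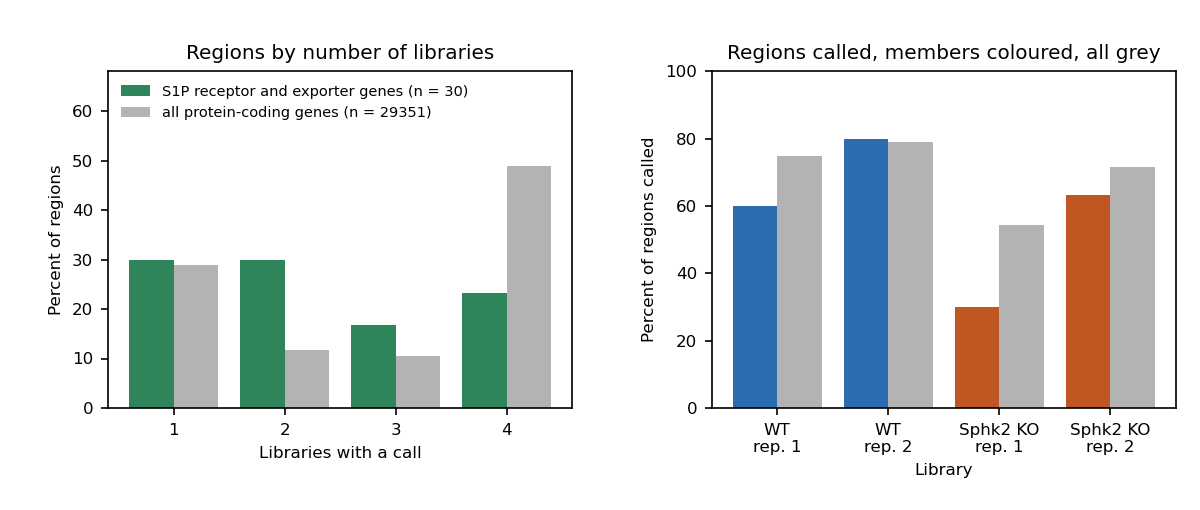
Left, percent of merged regions (y axis) called in 1 to 4 libraries (x axis) for the 30 member regions (green) and the 29351 regions near protein-coding genes (grey). Right, percent of the same regions called in each library (blue, WT; orange, Sphk2 KO; grey, all regions near genes). Member regions were called in all 4 libraries in 23.3% of cases, and Sphk2 KO replicate 1 called the fewest.

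Regions called in all 4 libraries held the strongest peaks. Peaks of the 7 shared regions had a median −log10 q of 30.2 (3.00 to 151, 28 peaks) and a median fold enrichment over local background of 6.94. Peaks of the 9 regions called in a single library had a median −log10 q of 3.07 (1.34 to 5.42) and a median fold of 3.07. In between, regions called in 2 libraries had a median −log10 q of 6.30 and those called in 3 had 4.91, so strength did not follow the number of libraries throughout. WT replicate 2 supplied 5 of the 9 regions called in a single library (55.6%), and among all such regions near genes it also supplied the most (37.6%).

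**Figure D3:**
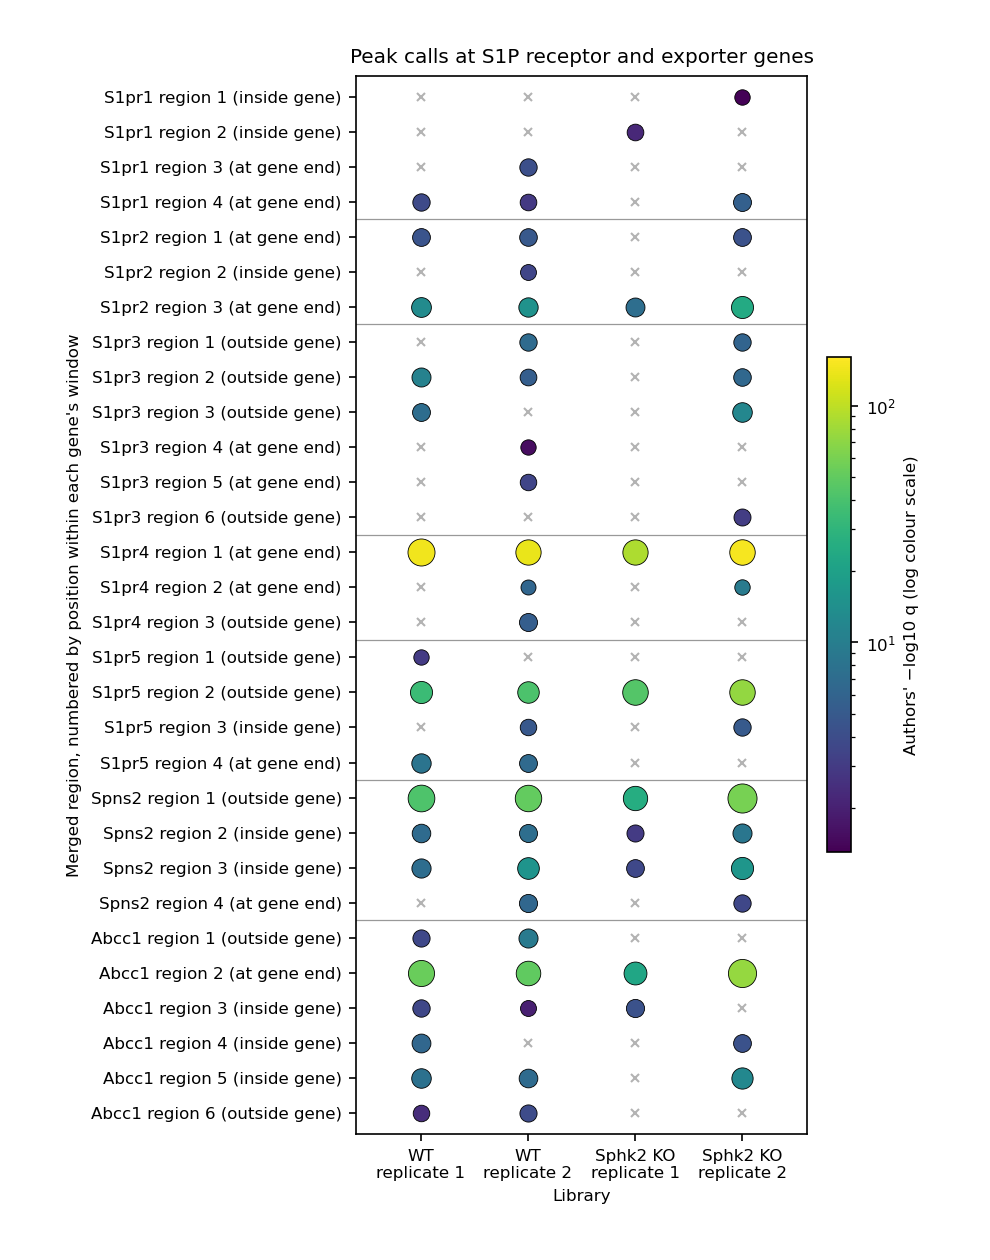
Each row is a merged region, numbered by position within the gene's window, and each column a library. Filled points mark called peaks, coloured by the authors' −log10 q on a log scale and larger for higher fold enrichment, and crosses mark no call. The row of S1pr5 region 4 has points in both WT columns and in neither Sphk2 KO column, and the Sphk2 KO replicate 1 column has 9 points.

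The receptor S1pr1 couples to Gi proteins and drives the exit of lymphocytes from lymphoid organs. The gene lies on chromosome 3 (115710433 to 115715055, mm10) and had only weak calls. At its upper-coordinate end, the region 115714748 to 115715373 had a call in WT replicate 1 (−log10 q 3.82), WT replicate 2 (2.90) and Sphk2 KO replicate 2 (5.56), and not in Sphk2 KO replicate 1. These calls stood in the top 75.8%, 85.1% and 77.1% of their lists, so the genotypes overlapped and all 3 were weak. Farther inside the gene lay 3 narrow regions, each called in 1 library only, with gaps of 136, 245 and 503 bp between successive regions up to that end. From lower to higher coordinate these were Sphk2 KO replicate 2 (1.34), Sphk2 KO replicate 1 (2.23) and WT replicate 2 (4.11). The gene body thus carried a call in every library, yet no position was called in all of them. When a peak within 500 bp counted as present, the innermost of these regions (115713163 to 115713395) became the only member region with both Sphk2 KO and neither WT library. The nearest region called in all 4 libraries lay 14409 bp from the gene (5.18 and 5.13 in WT, 4.45 and 8.12 in Sphk2 KO).

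S1pr2 couples mainly to G12/13 proteins and restrains cell migration. It was the only receptor gene with a region called in all 4 libraries over its own body. This region, chromosome 9, 20975800 to 20977003, covers the annotated start. Its −log10 q was 13 in WT replicate 1, 14.8 in WT replicate 2, 7.27 in Sphk2 KO replicate 1 and 24.0 in Sphk2 KO replicate 2. The Sphk2 KO values thus lay on either side of both WT values. Fold enrichment was 5.01 and 4.73 in WT against 4.48 and 6.59 in Sphk2 KO, and the pileup at the summit was 35, 43, 22 and 50 fragments in the same order. Summits lay 254, 413, 89 and 373 bp downstream of the start, so the strongest signal was just inside the gene and not in the printed window, of which the peaks covered 260, 260, 168 and 197 bases. A second region at the far end of the gene (20966540 to 20967429) was called in WT (4.57 and 4.91) and in Sphk2 KO replicate 2 (4.38). Another, 20973733 to 20973913, was called in WT replicate 2 alone (3.51).

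S1pr3 couples to Gi, Gq and G12/13 proteins and is best studied in vascular and stromal cells. Its start on chromosome 13 (51408618, plus strand) had calls in WT replicate 2 alone, at 51408384 to 51408566 (−log10 q 1.52) and 51408757 to 51408982 (3.50). The other 3 libraries had no call within 1 kb of either gene end. A cluster of regions 7124 to 9553 bp before the gene, inside the long non-coding gene Gm32834, which also overlaps the start of S1pr3, was stronger. Its middle region, 51400238 to 51400656, had values of 10.9 and 5.39 in WT against 6.52 in Sphk2 KO replicate 2. The nearest of the cluster, 51400887 to 51401494, had 7.18 in WT replicate 1 and 12 in Sphk2 KO replicate 2. The outermost, 51398743 to 51399065, had 6.89 in WT replicate 2 and 5.97 in Sphk2 KO replicate 2, with summits at the same base. Sphk2 KO replicate 2 therefore called the whole cluster and Sphk2 KO replicate 1 called nothing in the window of S1pr3. One further region beyond the gene, inside Shc3, was called in Sphk2 KO replicate 2 (3.07).

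S1pr4 is a receptor of blood and lymphoid cells. The gene is short (2393 bp, chromosome 10, 81497745 to 81500137), and its printed promoter window had no call in any library. A region inside the gene, 81498096 to 81499309, was called in WT replicate 2 (−log10 q 6.24) and Sphk2 KO replicate 2 (9.38). These peaks had a high pileup of 61 and 73 fragments but the low fold enrichments of 2.28 and 2.49, so the surroundings were also high. The strongest peaks of any member window lay 883 bp beyond the downstream end of S1pr4, at the end of the neighbouring gene Ncln, which encodes nicalin of the endoplasmic reticulum. There −log10 q was 143 and 137 in WT against 88.2 and 151 in Sphk2 KO, with summits at the same base in all 4 libraries. This region belongs by position to Ncln and overlaps no part of S1pr4. A region inside Gna15, a Gq-class G protein gene, was called in WT replicate 2 (5.42).

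S1pr5 is known from natural killer cells and patrolling monocytes, whose exit from bone marrow it supports. The region over its start (chromosome 9, 21248108 to 21248649) was the only WT-only region that overlapped a member's gene body. Its −log10 q was 8.32 in WT replicate 1 and 6.73 in WT replicate 2, with fold enrichments of 4.75 and 3.83 and pileups of 23 and 25 fragments. Neither Sphk2 KO library had a call there. Summits lay 44 bp upstream and 26 bp downstream of the start, and 219 bases of the printed window were inside both WT peaks. Over all genes, 1.27% had a gene-end peak in both WT and neither Sphk2 KO library, and 0.101% had the reverse.

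The S1pr5 call was of middling strength for its kind. Ordered by whichever WT library ranked it lower, it stood at place 574 of 1599 WT-only regions near genes, whose medians were 5.65 and 6.65 in WT replicates 1 and 2. Among the 1227 regions near genes with a −log10 q from 5 to 10 in both WT libraries, 26.6% had no call in either Sphk2 KO library and 35.2% had one in both. A region of that strength without a Sphk2 KO call was therefore common. It kept both WT calls at a −log10 q of at least 5. With the 20759 best peaks of every library it kept the call of WT replicate 1 (rank 18418) and lost that of WT replicate 2 (rank 21362). NK cell markers had no gene-end peak in either WT library and 1 of 7 in Sphk2 KO replicate 2 (Klre1; summed −log10 q 0, 0, 0 and 6.52).

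Other calls near S1pr5 did not separate the genotypes in the same direction. Inside the gene, 21244548 to 21245031 was called in WT replicate 2 (4.79) and Sphk2 KO replicate 2 (5.01). The region at the end of the neighbour Keap1, which encodes the sensor of oxidative stress that holds back Nrf2, lay 3542 bp from S1pr5 (21238338 to 21239375). Its −log10 q was 34.6 and 41.2 in WT against 44.2 and 73.6 in Sphk2 KO. Its fold enrichment was 6.61 and 6.19 in WT against 9.33 and 9.26 in Sphk2 KO. The medians of the whole lists were also higher in Sphk2 KO for both scores. Among the 16973 regions called in all 4 libraries the region at Keap1 ranked 8380 and 8196 in WT against 4333 and 5406 in Sphk2 KO. A weak peak 5328 bp from S1pr5, also in Keap1, was called in WT replicate 1 alone (2.99). The shared region thus ranked better in both Sphk2 KO libraries, as did 22.2% of all shared regions. This direction was opposite to that of the S1pr5 start. The two-sided p of an exact permutation test on these ranks was 0.333, and 2 libraries against 2 allow no smaller one.

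The exporter Spns2 releases S1P from endothelial cells and sets the S1P level of lymph. The gene spans 38.3 kb of chromosome 11 (72451638 to 72489976) and held 2 regions called in all 4 libraries inside it. At 72466477 to 72467530, −log10 q was 7.13 and 15.7 in WT against 3.70 and 16.3 in Sphk2 KO. At 72458064 to 72458949 it was 6.92 and 7.25 in WT against 3.00 and 8.62 in Sphk2 KO. In both regions the ranks of the genotypes overlapped, with Sphk2 KO replicate 1 ranking lowest. At a −log10 q of at least 5, Sphk2 KO replicate 1 lost both calls. Over the upper-coordinate end, the 5′ end of this minus-strand gene, 72489902 to 72490154 had a call in WT replicate 2 (6.36) and Sphk2 KO replicate 2 (3.63). The strong region at Mybbp1a, 9858 bp outside Spns2, had 41.6 and 50.2 in WT against 25.8 and 59.4 in Sphk2 KO. Endothelial markers had a gene-end peak at 1, 1, 0 and 1 of 8 genes (summed −log10 q 8.69, 7.45, 0 and 13.1), and Pecam1, Cdh5 and Tek had none.

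Mfsd2b exports S1P from red blood cells and platelets. No library had a peak within 10 kb of this gene (chromosome 12, 4862438 to 4874359), as was the case for 30.5% of protein-coding genes. The nearest region of any kind lay 18344 bp away, at the end of Wdcp, and was called in all 4 libraries (−log10 q 50.3 and 43.1 in WT, 22.5 and 42.8 in Sphk2 KO). No difference between the genotypes could be described at Mfsd2b. Erythroid and platelet markers had a gene-end peak at 1, 2, 1 and 2 of 9 genes (summed 44.4, 53.6, 26.7 and 57.6), and Gata1 and Itga2b had none.

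Abcc1 encodes MRP1, a broad exporter of conjugated organic anions that also carries S1P in several cell types. It had the strongest peak of its own of any member in each of the 4 libraries. The gene spans 113.4 kb of chromosome 16 (14361453 to 14474878), and this region, 14361405 to 14362335, covers its lower-coordinate end. Its −log10 q was 53.1 in WT replicate 1, 49.1 in WT replicate 2, 22.3 in Sphk2 KO replicate 1 and 75.1 in Sphk2 KO replicate 2. Fold enrichment was 9.79 and 8.50 in WT against 7.20 and 11.6 in Sphk2 KO. Both measures placed the WT values between those of the Sphk2 KO libraries. The peak was among the top 18.1% and 22.0% of the WT lists and the top 40.1% and 19.3% of the Sphk2 KO lists.

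The WT-only regions of Abcc1 lay outside the gene. The region 14352178 to 14352860, 8593 bp before it, had −log10 q of 3.66 and 9.25 in WT. The other, 14477252 to 14477735, 2374 bp beyond it, had 2.38 and 3.89. They stood at places 945 and 1384 of the 1599 WT-only regions near genes, the former past the middle of that order and the latter near its weak end. At a −log10 q of at least 5 the former kept 1 WT call and the latter none. Inside the gene, 14439004 to 14439790 was called in WT (7.90 and 6.82, top 59.2% and 65.9% of the lists) and in Sphk2 KO replicate 2 (12.2, top 60.0%). The region 14378524 to 14379093 was called in WT (3.61 and 1.97) and in Sphk2 KO replicate 1 (4.39), and its neighbour 14379748 to 14380367 in WT replicate 1 (6.38) and Sphk2 KO replicate 2 (4.38). Both Sphk2 KO libraries thus called the region over the gene's lower-coordinate end, while each of these 3 regions farther inside was called in 1 of them.

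**Figure D4:**
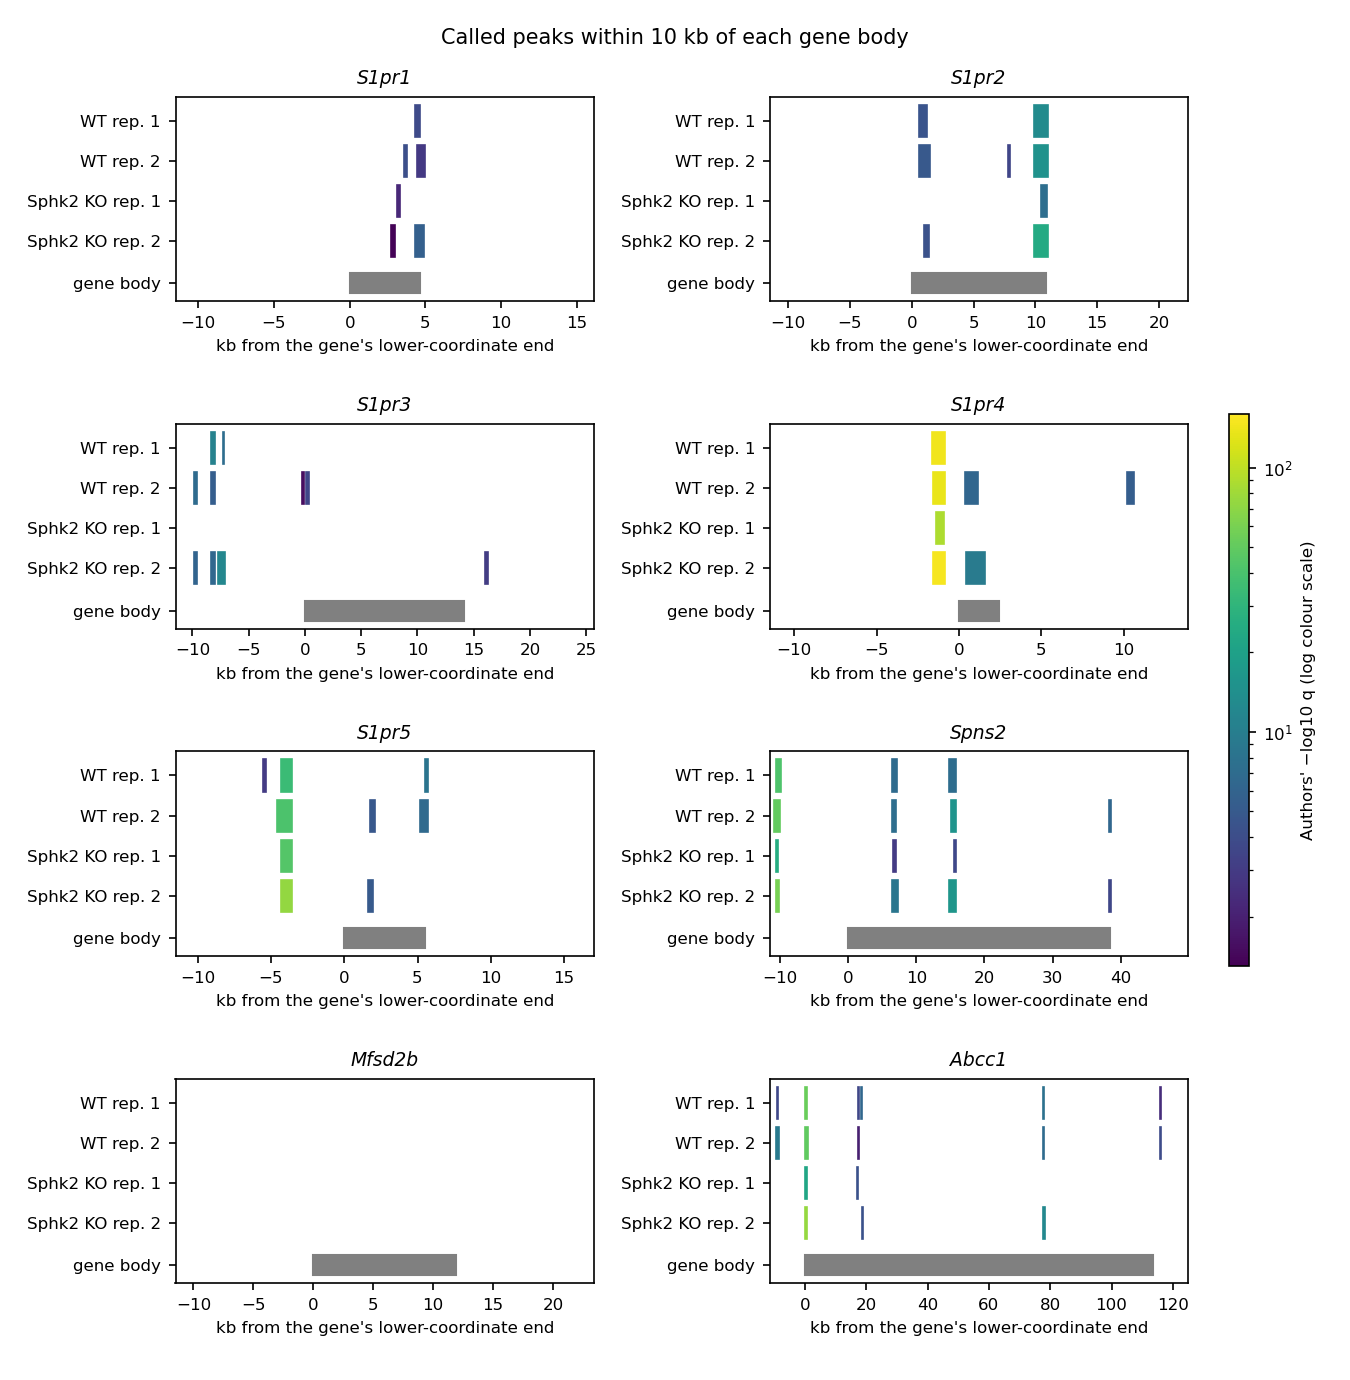
Called peaks of the 4 libraries (rows) drawn to scale around each gene body (grey bar), with distance in kb from the gene's lower-coordinate end on the x axis and colour for the authors' −log10 q on a log scale. The Mfsd2b panel is empty, the S1pr5 panel shows the 2 WT peaks at the right end of the gene, and the Abcc1 panel shows the peak over the left end in all 4 libraries.

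Within each library the members were ordered by the best peak that overlapped the gene body. Abcc1 came before all other members in every library. S1pr2 was next in WT replicate 1, Sphk2 KO replicate 1 and Sphk2 KO replicate 2, and Spns2 was next in WT replicate 2 (15.7 against 14.8 for S1pr2). Below them S1pr5 preceded S1pr1 in both WT libraries, at 8.32 against 3.82 and 6.73 against 4.11. In Sphk2 KO replicate 2 the order was the reverse (5.01 against 5.56), and in Sphk2 KO replicate 1 S1pr5 had no call while S1pr1 had 2.23. The S1pr5 values in WT were those of its WT-only region, and the value in Sphk2 KO replicate 2 came from another region inside the gene. How often other pairs of genes separate in this way was not counted, so the order of this pair is no result about the genotypes. The leading place of Abcc1 was thus the same in every library, while S1pr2 and Spns2 changed places between the WT libraries. Receptor windows held 20 regions, of which 3 were shared by all libraries and 1 of these overlapped a receptor gene. Exporter windows held 10 regions, of which 4 were shared and 3 of these overlapped an exporter gene.

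Ranks among the 16973 shared regions compared the genotypes on lists of equal length. Of the 7 shared member regions, 1 ranked better in both Sphk2 KO libraries, the Keap1 region described above (22.2% of all shared regions did so). None ranked better in both WT libraries (21.2% of all shared regions did so). For the 6 regions other than that at Keap1 the ranks of the genotypes overlapped, with exact permutation p from 0.667 to 1.00. These counts turned on single libraries. Without Sphk2 KO replicate 2, 5 of the 7 ranked better in WT, and without WT replicate 2 the number was 2. Without Sphk2 KO replicate 1, 4 ranked better in Sphk2 KO. With 1 library left for a genotype, ranks separate more easily in any region. The matching shares over all shared regions are not given here, so these counts are no result about the members. The S1pr2 start ranked 13927 and 14162 in WT against 14306 and 12035 in Sphk2 KO, near the weak end. The lower end of Abcc1 ranked 5681 and 6997 in WT against 8277 and 5283 in Sphk2 KO.

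**Figure D5:**
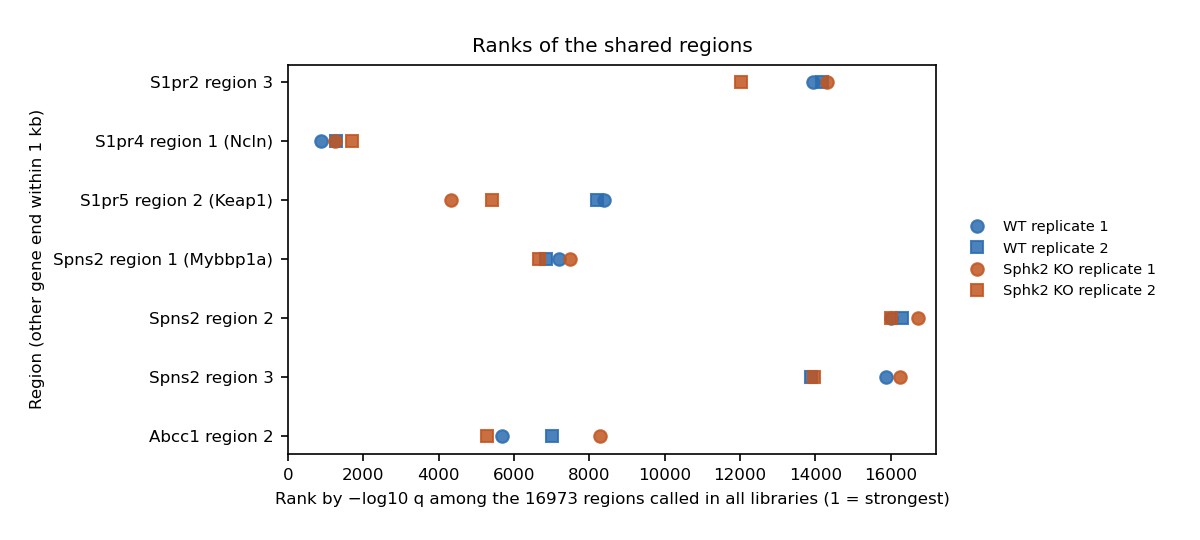
Rank by −log10 q among the 16973 regions called in all libraries (x axis, 1 is the strongest) for the 7 shared member regions (y axis). Blue marks WT, orange Sphk2 KO, circles replicate 1 and squares replicate 2; only in the row of S1pr5 region 2, at Keap1, do the genotypes stand apart.

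Other genes of the S1P pathway were taken from 5 lists with 63 genes, all found in the gene table. Within 10 kb, 45 of these genes had a region called in all 4 libraries (71.4%, compared with 54.5% of protein-coding genes). A WT-only region was found at 6 genes (9.52%, compared with 7.90%) and a Sphk2 KO-only region at 2 genes (3.17%, compared with 1.01%), one of which was Sphk2 itself. A gene-end peak in all 4 libraries was found at 3 of the 8 members (S1pr2, S1pr4 through the Ncln region, and Abcc1), compared with 41.6% of protein-coding genes. Among the 8 members, 5 had a region called in all 4 libraries (compared with 54.5% of protein-coding genes). At 3 of these 5 such a region overlapped the gene body, while at S1pr4 and S1pr5 it lay at the end of Ncln and Keap1. A WT-only region was found at 2 members (compared with 7.90%), and those of Abcc1 lay outside the gene. No member had a Sphk2 KO-only region (compared with 1.01%).

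By list, S1P making and breakdown had 1 WT-only gene of 13, the ceramidase gene Acer1 (−log10 q 4.26 and 5.42). Carriers and regulators of S1P receptors had 2 of 9. These were Cd69, whose product pulls S1PR1 from the cell surface (4.67 and 7.67), and Dnm2, a dynamin of endocytosis (2.98 and 2.34). G proteins and effectors had 2 of 19, Gnai2 and the kinase gene Akt1, and 18 of these 19 genes had a region called in all 4 libraries. The region at Gnai2, which encodes an inhibitory G protein used by S1P receptors, was the strongest of them (23.5 and 32.3) but lay 9276 bp outside the gene. Another inhibitory G protein gene, Gnai3, had a Sphk2 KO-only region 5375 bp outside it (2.71 and 6.73). Related lipid receptors had 1 of 11, the lysophosphatidic acid receptor gene Lpar1 (7.13 and 12.3), and 5 of the 11 had no region at all. Related transporters had none of 11 in either direction.

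The genes closest to S1pr5 and Abcc1 in the percentile of their best peak within 10 kb, over the 4 libraries, were also found. The summed difference was 4.64 percentile points for both Mpnd and Stap2 against S1pr5, whose best peak is that of Keap1. Mpnd and Stap2 had the same percentile in every library (74.6 and 73.4 in WT, 76.8 and 80.0 in Sphk2 KO), so they count as a single match. For Abcc1 it was 3.67 for Trim37 and 4.29 for Prdm1.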

How the data were processed

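Peaks were called by the authors on each library with MACS 2.1.1.20160309, per the file headers, from paired-end fragments with no control. A q-value of 0.05, a local background of 10 kb and 1 duplicate kept were set. The submitters' processing notes name cutadapt, BWA and mm10, with no tool version. The deposited lists give pileup (a coverage signal not scaled to depth), fold enrichment (a ratio to the local background) and −log10 q, each the authors' value for that peak. Deposited scores were used to rank peaks within a list, or among regions called in all libraries. Scores of several libraries set side by side describe single peaks. They were not scaled for depth or for the different medians of the lists, so they do not measure a difference between genotypes. A region without a call may be accessible below the threshold. With 2 libraries per genotype the exact permutation test cannot give a p under 0.333, and since the labels do not tie libraries to animals, it measures the spread between libraries.

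Gene positions and promoter sequences were those of RefSeq, GRCm38.p6, and exons were not used here. The members and lists were chosen with earlier results of these data known. Named genes were the members, their neighbours, Sphk2, up to 4 genes per list and direction with a genotype-specific region, and the 2 closest genes in best-peak percentile for each member with such a region. Merging was tested on simulated data. Python 3.11.15 and numpy 2.4.6 were used. Alternatives were a stricter −log10 q, lists of equal length, peaks within 500 bp, summit windows of 250 bp, other gene windows, other scores, the replicate number as a block, and each library left out.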

Additional observations from a re-analysis of the deposited data

How the results depend on the processing

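The count of 7 shared regions was 4 with the gene body alone and 17 with 25 kb on each side, and it ranged from 6 to 11 when 1 library was left out, with 11 without Sphk2 KO replicate 1. The 3 WT-only regions became 1 at a −log10 q of at least 5 and 0 with lists of 20759 peaks. They became 1 with the gene body alone and 5 with 25 kb, and ranged from 4 to 9 with 1 library left out, with 9 without WT replicate 1 and 7 without Sphk2 KO replicate 2. Sphk2 KO-only regions numbered 1 when peaks within 500 bp counted, and 0 to 2 with 1 library left out, with 2 without Sphk2 KO replicate 1 and 1 without Sphk2 KO replicate 2. Of the shared regions, those better ranked in WT numbered 1 by pileup height, 2 with 25 kb, and 1 to 5 with 1 library left out, with 5 without Sphk2 KO replicate 2. Those better ranked in Sphk2 KO numbered 2 by fold enrichment, 0 with the gene body alone, 3 with 25 kb, and 1 to 4 with 1 library left out, with 4 without Sphk2 KO replicate 1. With 1 library left out, 1 call stands for its genotype, and beyond that the cause was not tested. The matching shares over all regions are not given for these alternatives, so the changes are not shown to be particular to the members. For single regions, 45 counts of calling libraries per genotype changed and 75 did not under the stricter −log10 q or the lists of equal length.

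With the replicate number as a block, 2 shared regions ranked better in WT and 1 in Sphk2 KO within both pairs. The libraries share only a number: the replicate differences of the 2 genotypes in log2 rank had a correlation of 0.02 over 16973 shared regions. The lack of a call at the caller's q-value of 0.05 does not show a lack of accessibility, and Sphk2 KO replicate 1 had the fewest fragments.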
